A study of Mus musculus with 12 samples.

Results

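Newly made secretory proteins leave the endoplasmic reticulum (ER) in vesicles coated with COPII and are carried to the Golgi, and COPI-coated vesicles bring receptors and escaped ER proteins back. Assembly of COPII starts when Preb loads GTP onto a Sar1 GTPase, which recruits the inner coat of Sec23 and Sec24 and then the outer cage of Sec13 and Sec31. COPI, a coat built of coatomer subunits, is recruited by Arf GTPases that Gbf1 activates, and SNARE proteins fuse the vesicles with their target. Alveolar epithelial type 2 cells (AEC2) of the lung depend on this route to move proSP-C, the precursor of surfactant protein C, towards the lamellar bodies.

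The 40 genes described here are the coat, exit site, cargo receptor and SNARE genes of ER-Golgi traffic, listed by name and found through their Ensembl identifiers. All 40 of 40 were measured, among 16080 genes in all. They fall into 8 roles, namely 10 COPII coat genes, 3 genes of the ER exit site, 8 COPI subunits, 4 genes of Arf GTPases and their exchange factor, 4 members of the p24 family, 3 KDEL receptors, 3 other cargo receptors and 5 SNAREs. Read counts of these genes ran from 93 for Kdelr3 to 11052 for Arf1 in a library, so counting error was small for all but Kdelr3.

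RNA was sequenced from AEC2 of female Bl6 mice at P56, with 4 libraries in each of 3 groups, to ask how a mutant SP-C changes the cells. WT mice carried SP-C WT, C185Gneo mice carried the allele that the series calls a hypomorphic control, and C185G mice expressed SP-C with the C185G change in the BRICHOS domain. All 3 groups received intraperitoneal tamoxifen at 200 mg/kg for 2 days, and cells were isolated on day 7. Which recombinase was used, and which promoter drives it, is not given in the sources used here. Whether each library is from a different mouse is not stated either, so the p-values cover sample-to-sample spread that may be technical.

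Groups follow the genotype field of the labels. The titles of the C185Gneo libraries carry C185G and those of the C185G libraries carry the code C8C. Sftpc, which encodes SP-C, was at 7470 ± 194 normalized CPM (counts scaled for library size; SD, n = 4) in WT, 895 ± 143 in C185Gneo and 2830 ± 256 in C185G, and was thus lowest in the group called hypomorphic. The libraries held 15659512 to 23444287 counts. C185Gneo replicate 1 and C185G replicate 1 were the least like the other libraries of their groups, with mean correlations of log2 values across genes of 0.981 and 0.982, and results are given with and without them where they matter. The 10 AEC2 markers, Sftpc included, summed to 33550 to 39360 CPM in WT, 30190 to 34240 in C185Gneo and 14110 to 16900 in C185G. Each of the 10 was lower in C185G than in WT (all adjusted p under 0.05, limma). In C185Gneo against WT, 1 of the 10 was lower, namely Sftpc itself, and 0 were higher.

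Cells of other kinds left RNA in every group. The 9 mesenchymal markers summed to 457 to 713 CPM in WT, 179 to 516 in C185Gneo and 599 to 817 in C185G, and the 9 endothelial ones to 160 to 251, 147 to 233 and 119 to 140. The 7 measured myeloid markers summed to 62.0 to 89.2, 55.4 to 75.3 and 81.4 to 140 CPM, and the 3 lymphoid ones to 20.03 to 28.9, 20.4 to 26 and 16.1 to 20.3. Club and ciliated markers (7) summed to 6080 to 8208, 5752 to 7562 and 5319 to 6131 CPM, and alveolar type 1 markers (7) to 1475 to 1880, 1479 to 1751 and 1399 to 1668. No measured marker was at 0 in a library, and Emcn, Marco, Adgre1, Siglecf, Cd3e, Cd3d, Cd8a, Ms4a1 and Nkg7 are not among the genes measured. In C185G against WT, 1 of the 9 mesenchymal markers, 4 of the 7 myeloid ones and 0 of the 3 lymphoid ones were higher, and 6 of the 9 endothelial ones, 2 of the 3 lymphoid ones and 2 of the 7 club and ciliated ones were lower. Against C185Gneo, 7 of the 9 mesenchymal and 4 of the 7 myeloid markers were higher, and 7 of the 9 endothelial, 2 of the 3 lymphoid and 2 of the 7 club and ciliated ones lower. Of the 7 alveolar type 1 markers, 1 was higher (Pdpn, 1.35 against WT on the log2 scale) and 1 lower (Ager, -0.32), as also against C185Gneo. Of all 16080 genes, 55% had an adjusted p under 0.05 in C185G against WT (limma) and 57.8% against C185Gneo. The markers moved together with the changes below, and their part in those changes was not tested. In bulk RNA, fewer cells of a type and less RNA per cell cannot be told apart.

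In WT the ER-Golgi genes spanned a 48.6-fold range of level per length. Arf1, the GTPase that recruits COPI, was highest at 225 ± 3.48 CPM per kb of exon (SD, n = 4), followed by the cargo receptor Surf4 at 76.2 ± 3.29, Arf4 at 55.9 ± 1.02, Sar1a at 55.0 ± 1.30 and Arf5 at 50.7 ± 2.19 CPM per kb. Arf4 and Sar1a did not differ beyond their spread. The lowest levels per length were those of Sec23a at 4.63 ± 0.108, Kdelr3 at 5.53 ± 0.585 and the SNARE Bet1 at 6.10 ± 0.178 CPM per kb. The median over the 40 genes was 24.8 CPM per kb. Among paralogs, Sec23b stood at 20.5 ± 0.877 CPM per kb against 4.63 for Sec23a, and Sar1a at 55.0 against 36.8 ± 0.647 for Sar1b.

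In C185G against WT, members of the same complexes moved in opposite directions. Of the 40 genes, 13 were higher and 10 lower at an adjusted p under 0.05 (limma across all genes), and 17 did not pass. Over all 16080 genes, 27.3% were higher and 27.8% lower, 55% in either direction, beside the members' 57.5%. Of the 7980 genes with a mean of at least 20 CPM, which all members but Kdelr3 reached, 63.9% passed. The members' share was thus near that of all genes and below that of genes at this level. The groups did not overlap for 19 of the 40, or 47.5%, against 48.7% of all genes and 57.6% of those with at least 20 CPM. Changes were small: the members ran from -0.35 to 0.69 on the log2 scale, and 0 of 40 changed by more than 1, against 11.9% of all genes and 7.27% of the 7980 genes with a mean of at least 20 CPM. Their median log2 change was 0.04, beside -0.00 for all genes. The summed level of the 40 genes was 5345 to 5511 CPM in WT, 5422 to 5536 in C185Gneo and 5400 to 5733 in C185G. C185G replicate 1, at 5400 CPM, lay within the range of WT, and the other 3 C185G libraries, at 5679 to 5733 CPM, lay above every WT and C185Gneo library. The route did not rise as a whole. Mean levels in WT and C185G were 250 and 406 CPM for Surf4, 102 and 153 for Mia3, and 88.1 and 135 for Ykt6. The COPII coat genes summed to 1142 to 1197 CPM in WT and 1129 to 1188 in C185G, and the COPI subunits to 1380 to 1431 and 1357 to 1461. The summed KDEL receptors were lower in C185G.

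In C185G against C185Gneo, 12 of the 40 were higher, 9 lower and 19 did not pass. The share passing was 52.5%, against 57.8% of all genes (29.2% higher, 28.7% lower) and 66.2% of those with at least 20 CPM. The shares of all genes in each comparison are also the background of the counts by role below. The groups did not overlap for 17 members, or 42.5%, against 49.9% of all genes and 59.3% of those with at least 20 CPM. Of the 40, 0 changed by more than 1, against 13.8% of all genes and 8.96% of those with at least 20 CPM. The median of the members was 0.01 on the log2 scale and that of all genes 0.00. Both comparisons use the same C185G libraries, so their values stand side by side below and are not independent. The split into higher and lower depended on the scaling. With library totals in place of the authors' scaling, which put the median of all genes at 0.08 against WT and 0.07 against C185Gneo, 18 members were higher and 7 lower against WT, and 15 and 8 against C185Gneo.

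**Figure D1:**
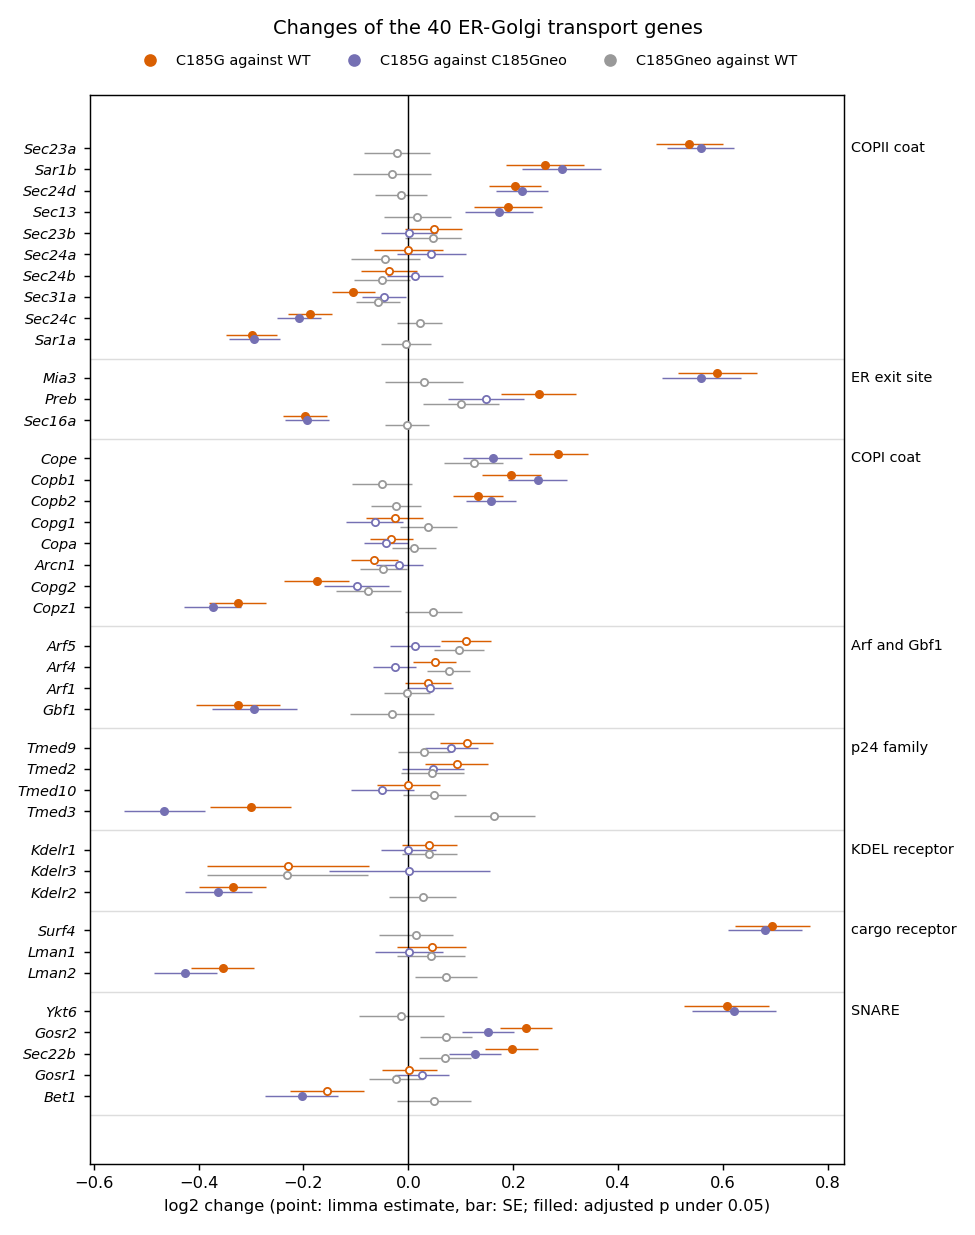
Fitted log2 change (points; bars are the SE) of each of the 40 genes, grouped by role, in the 3 comparisons of the groups (4 libraries each). Filled points have an adjusted p under 0.05. Surf4, Ykt6, Mia3 and Sec23a stand apart at 0.54 to 0.69 in C185G against WT, and no point of C185Gneo against WT is filled.

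C185Gneo and WT were close. Of the 40 genes, 0 passed in C185Gneo against WT (limma), against 0.541% of all genes, and 1 had an unadjusted p under 0.05. That was Cope, the epsilon subunit of COPI, named here after its values were seen, at a log2 change of 0.12 (adjusted p = 0.503, limma). With voom weights on the recovered counts 0 passed as well, and 2 had an unadjusted p under 0.05. The number with an unadjusted p under 0.05 was 4 with library totals as the scaling. It was also 4 without WT replicate 3, and 0 without WT replicate 1. The groups did not overlap for 1 member, Arf4, or 2.5%, against 6.86% of all genes. The members' log2 changes ran from -0.23 to 0.16 with a median of 0.02.

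Promoters of 7 members hold the core of the unfolded protein response (UPR) element, the letters to which the ER stress factors XBP1 and ATF6 bind. The RefSeq promoter table (GRCm38.p6, 250 bases before to 50 after each start) held 36 of the 40 genes, with Tmed2, Arcn1, Kdelr2 and Lman1 unmatched. The core TGACGTGG was searched on both strands and found in 7 of 36, or 19.4%, beside 193 of 27025 genes (0.714%) and 121 of the 11463 measured genes matched by symbol (1.06%). The cAMP response element TGACGTCA, which shares the first letters of that core, was found in 2 of 36 (5.56%), Cope and Gosr2, beside 2.03% of all genes and 3.44% of those measured. The ER stress element, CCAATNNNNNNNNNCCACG, whose end on the opposite strand overlaps the core, was found in 0 of 36 and in 0.137% of all genes. A second ER stress element, ATTGGNCCACG, was found in 0 of 36 and in 0.0444% of all genes. The 7 stretches are shown because the match lies within 30 bases of the start in each, at different distances and on either strand. Capitals mark the core (TGACGTGG, or CCACGTCA where the match is on the opposite strand), each stretch is read 5′ to 3′ on the strand of its gene, and positions count from the RefSeq start with no position 0.
Sec23a, chr12:59011978-59012037 (-), positions 7 to 14: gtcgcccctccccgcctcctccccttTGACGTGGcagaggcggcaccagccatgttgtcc
Sec24d, chr3:123267444-123267503 (+), positions -26 to -19: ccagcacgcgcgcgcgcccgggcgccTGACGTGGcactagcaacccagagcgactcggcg
Copb1, chr7:114254675-114254734 (-), positions -28 to -21: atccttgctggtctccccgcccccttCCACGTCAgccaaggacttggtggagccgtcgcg
Copb2, chr9:98563698-98563757 (+), positions -7 to 1: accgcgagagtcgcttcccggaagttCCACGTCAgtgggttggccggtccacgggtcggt
Arf1, chr11:59228218-59228277 (-), positions 22 to 29: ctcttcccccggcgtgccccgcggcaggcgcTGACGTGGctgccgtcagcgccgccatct
Gbf1, chr19:46152520-46152579 (+), positions -12 to -5: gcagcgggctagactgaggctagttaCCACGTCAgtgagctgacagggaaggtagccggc
Kdelr3, chr15:79516352-79516411 (+), positions -30 to -23: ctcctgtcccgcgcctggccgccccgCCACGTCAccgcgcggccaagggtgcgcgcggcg

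The genes of these 7 promoters did not move in the same direction in C185G against WT. Sec23a, Sec24d, Copb1 and Copb2 were higher, Gbf1 was lower, and Arf1 (0.04) and Kdelr3 (-0.23) did not pass. A match is a description of the letters and shows no binding.

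Among the COPII coat genes, 4 of 10 were higher and 3 lower in C185G against WT, and 4 and 2 against C185Gneo. The inner coat component Sec23a, the GTPase-activating partner of Sar1 (chr12:58958383-59012017, minus strand, GRCm38), changed most. Its levels in replicates 1 to 4 were 22.3, 22.8, 21.7 and 22.9 CPM in WT, 21.3, 22.3, 22.1 and 22.8 in C185Gneo, and 29.4, 33.2, 33.6 and 34.0 in C185G. Every C185G library lay above every other library, with replicate 1 the lowest of the 4. The log2 change was 0.54 ± 0.06 (SE) against WT (adjusted p = 9.05e-06, limma) and 0.56 ± 0.06 against C185Gneo (adjusted p = 5.74e-06). Its paralog Sec23b, with 129 ± 5.52 CPM in WT and 133 ± 7.92 CPM in C185G, passed in neither comparison (0.05 and 0.00).

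Sar1a and Sar1b, the GTPases that start the coat, moved in opposite directions. Sar1a (chr10:61680299-61693297, plus strand) was at 200 to 210 CPM in WT, 197 to 214 in C185Gneo and 155 to 173 in C185G, a log2 change of -0.30 against WT and -0.29 against C185Gneo (adjusted p = 0.000145 and 0.000156, limma). Sar1b was at 45.1 to 47.1, 41.1 to 48.9 and 48.1 to 60.2 CPM, a log2 change of 0.26 and 0.29 (adjusted p = 0.00918 and 0.00426, limma). The C185G libraries lay below all others for Sar1a, and for Sar1b above all WT libraries, while replicate 1 overlapped C185Gneo.

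In the GENCODE annotation the span of Sar1b starts 53 bases from that of Sec24a, a cargo adaptor gene on the opposite strand. The RefSeq table places the Sec24a start elsewhere, with its promoter window at chr11:51756785-51757084, so the annotations differ on whether these genes start next to each other. Sec24a did not pass, with 78.7 ± 2.38 CPM in WT and 78.7 ± 2.47 CPM in C185G (-0.00 against WT, 0.04 against C185Gneo). The RefSeq window of Sar1b is shown because it contains both GENCODE starts, with capitals from that of Sec24a at 51763634 to that of Sar1b at 51763687 (54 bases, plus strand, GRCm38).
Sar1b, chr11:51763413-51763712 (+): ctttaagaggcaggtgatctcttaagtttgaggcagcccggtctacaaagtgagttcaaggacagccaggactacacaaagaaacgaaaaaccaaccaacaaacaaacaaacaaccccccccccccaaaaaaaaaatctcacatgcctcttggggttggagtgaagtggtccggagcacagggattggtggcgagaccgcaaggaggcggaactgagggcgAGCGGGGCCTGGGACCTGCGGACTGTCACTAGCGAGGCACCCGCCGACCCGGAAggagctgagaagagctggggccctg
The window holds the CCAAT box on the opposite strand, printed above as attgg, and no UPR element core. A CCAAT box on either strand was found in 14 of 36 members (38.9%) and 41.1% of all genes.

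The Sec24 proteins bind cargo. Sec24d rose by 0.20 against WT and 0.22 against C185Gneo (adjusted p = 0.00342 and 0.00208, limma), from 105 ± 2.92 CPM in WT and 104 ± 3.86 in C185Gneo to 121 ± 6.07 in C185G. Sec24c fell by 0.19 and 0.21 (adjusted p = 0.00202 and 0.000877, limma), from 172 ± 6.11 and 175 ± 2.20 to 151 ± 3.55 CPM. Its span overlaps the opposite-strand gene 6230400D17Rik by 7617 bases, and the strand setting of the counting is not given. The spans of Copa, Copg2, Arf4, Arf5, Kdelr1, Kdelr3, Surf4 and Gosr2 also overlap genes on the opposite strand, and their values are uncertain to that extent. Sec24b did not pass, at -0.04 and 0.01.

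The outer cage pair moved apart by little. Sec13, also a nuclear pore component, was at 74.4 ± 4.26 CPM in WT and 85.0 ± 6.97 in C185G, higher by 0.19 (adjusted p = 0.022) and against C185Gneo by 0.17 (adjusted p = 0.0328, limma). Sec31a was at 220.1 to 228 CPM in 3 WT libraries and 211 in replicate 2, and at 200 to 212 in C185G, lower by 0.10 (adjusted p = 0.0465), with -0.05 against C185Gneo (adjusted p = 0.36). Both overlapped between groups, and both calls were lost under some of the other processing choices.

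At the ER exit site all 3 genes passed in C185G against WT. Mia3, also called TANGO1, joins large cargo such as collagen to the COPII coat (chr1:183326725-183369553, minus strand). In replicates 1 to 4 its levels were 99.5, 96.4, 100 and 110 CPM in WT, 96.0, 102, 108 and 109 in C185Gneo, and 135, 146, 173 and 159 in C185G. All 4 C185G libraries lay above the other groups, replicate 1 being the nearest to them. Its fitted log2 change was 0.59 ± 0.07 against WT and 0.56 ± 0.07 against C185Gneo (adjusted p = 1.72e-05 and 2.49e-05, limma).

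Preb, the exchange factor of Sar1, rose by 0.25 against WT (adjusted p = 0.00969), from 76.3 ± 8.17 to 90.4 ± 4.60 CPM. Against C185Gneo its log2 change was 0.15 and did not pass (adjusted p = 0.0928, limma). Sec16a, the scaffold of exit sites, fell by 0.20 and 0.19 (adjusted p = 0.00135 and 0.00144, limma). Its level was 221 to 234 CPM in WT, 219 to 233 in C185Gneo and 194 to 204 in C185G, with no overlap.

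Of the 8 COPI subunits, 3 were higher and 2 lower in C185G against WT, and 3 and 1 against C185Gneo. Copz1, the zeta subunit (chr15:103272714-103299868, plus strand), fell most. Its levels in replicates 1 to 4 were 102, 102, 107 and 101 CPM in WT, 107, 113, 98.3 and 109 in C185Gneo, and 85.1, 86.5, 80.9 and 76.8 in C185G. Each C185G library was below every library of the other groups. On the log2 scale the change was -0.33 ± 0.05 against WT and -0.37 ± 0.05 against C185Gneo (adjusted p = 0.000195 and 5.67e-05, limma).

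Cope, the epsilon subunit, rose by 0.29 against WT (adjusted p = 0.000677), from 102 ± 6.14 to 124 ± 5.40 CPM, and by 0.16 against C185Gneo (111 ± 5.31 CPM, adjusted p = 0.0244, limma). Copb1, the beta subunit, rose by 0.20 and 0.25 (adjusted p = 0.00937 and 0.00203), from 139 ± 6.64 and 134 ± 5.47 to 159 ± 10.1 CPM. Copb2, the beta prime subunit, rose by 0.13 and 0.16 (adjusted p = 0.0305 and 0.0124, limma), with 174 CPM in C185G replicate 1 and 192 to 196 in the others, against 168 to 178 in WT. Copb1 and Copb2 therefore overlapped WT in replicate 1 and did not overlap C185Gneo.

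Copg2, a gamma subunit, fell by 0.17 against WT (adjusted p = 0.0271), from 69.2 ± 3.28 to 61.4 ± 4.44 CPM, and was at -0.10 against C185Gneo (adjusted p = 0.187, limma). It overlaps the imprinted gene Mest on the opposite strand by 912 bases. The alpha subunit Copa (-0.03), the other gamma subunit Copg1 (-0.03) and the delta subunit Arcn1 (-0.06) did not pass against WT, nor against C185Gneo (-0.04, -0.06 and -0.02).

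Among the GTPases of COPI, Arf1 (0.04), Arf4 (0.05) and Arf5 (0.11, adjusted p = 0.0655) did not pass in C185G against WT, nor against C185Gneo (0.04, -0.03 and 0.01). Gbf1, the exchange factor that activates Arfs at the early Golgi (chr19:46152509-46286510, plus strand), fell. Levels in replicates 1 to 4 were 164, 154, 162 and 158 CPM in WT, 156, 152, 162 and 156 in C185Gneo, and 153, 133, 110 and 118 in C185G. C185G replicate 1 lay just under the lowest WT library and above the lowest C185Gneo library, while the other 3 lay well below both groups. The log2 change was -0.32 ± 0.08 against WT and -0.29 ± 0.08 against C185Gneo (adjusted p = 0.00361 and 0.00652, limma).

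The p24 proteins cycle between ER and Golgi and help load and sort cargo. Tmed3 fell by 0.30 against WT and 0.46 against C185Gneo (adjusted p = 0.0046 and 0.000167, limma). It was at 47.3 to 57.4 CPM in WT, 54.6 to 64.7 in C185Gneo and 39.4 to 45.6 in C185G, with no overlap of C185G and the others. Tmed2 (0.09), Tmed9 (0.11, adjusted p = 0.0756) and Tmed10 (-0.00) did not pass against WT, nor against C185Gneo (0.05, 0.08 and -0.05).

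KDEL receptors return ER chaperones from the Golgi. Kdelr2 (chr5:143403838-143421901, plus strand) was at 79.3, 74.8, 80.0 and 74.0 CPM in WT replicates 1 to 4, at 81.9, 78.7, 75.5 and 77.8 in C185Gneo, and at 65.5, 66.5, 57.2 and 55.6 in C185G. The C185G libraries were all lower than the rest. The fitted change on the log2 scale was -0.33 ± 0.06 against WT and -0.36 ± 0.06 against C185Gneo (adjusted p = 0.000541 and 0.000271, limma). Kdelr1 did not pass (0.04 and 0.00), with 89.0 ± 3.62 CPM in WT and 91.5 ± 3.39 CPM in C185G. Kdelr3, the gene with the fewest counts, was at 7.80 ± 0.825 and 6.71 ± 1.23 CPM and did not pass either (-0.23, adjusted p = 0.221, and 0.00). Together the 3 receptors reached 156 to 164 CPM in C185G, below the 168 to 177 of WT and the 170 to 187 of C185Gneo.

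The other cargo receptors held both extremes of the 40 genes in C185G against WT. Surf4, a receptor for soluble secreted proteins (chr2:26920040-26933928, minus strand), rose most. In replicates 1 to 4 its levels were 259, 249, 257 and 235 CPM in WT, 255, 251, 253 and 250 in C185Gneo, and 342, 406, 430 and 448 in C185G. Every C185G library was far above the other 8 libraries, which lay close together, and replicate 1 was the lowest of the 4. The log2 change was 0.69 ± 0.07 against WT, an increase of 61.7%, and 0.68 ± 0.07 against C185Gneo (adjusted p = 2.46e-06 and 2.66e-06, limma). Surf4 overlaps Surf2 on the opposite strand by 144 bases.

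Lman2, a lectin that binds high-mannose glycoproteins (chr13:55343833-55362783, minus strand), fell most against WT. Its levels in replicates 1 to 4 were 177, 175, 173 and 164 CPM in WT, 186, 180, 184 and 173 in C185Gneo, and 147, 138, 136 and 119 in C185G. The C185G libraries lay below all the others. This gave a log2 change of -0.35 ± 0.06 against WT, so that it fell by 21.8%, and -0.43 ± 0.06 against C185Gneo (adjusted p = 0.000206 and 3.93e-05, limma). Lman1, the lectin receptor also called ERGIC-53, did not pass (0.04 and 0.00) and stood at 110 ± 3.22 CPM in WT and 114 ± 11.6 CPM in C185G. The summed level of the 3 was 506 to 550 CPM in WT, 538 to 558 in C185Gneo and 587 to 686 in C185G, where every library lay above the others.

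Of the 5 SNAREs, 3 were higher and 0 lower in C185G against WT, and 3 and 1 against C185Gneo. Ykt6, a SNARE that lacks a transmembrane segment and is held to membranes by lipids (chr11:5955693-5967780, plus strand), rose most. Levels in replicates 1 to 4 were 91.0, 88.6, 91.2 and 81.5 CPM in WT, 86.1, 81.1, 91.0 and 90.9 in C185Gneo, and 113, 130, 146 and 150 in C185G. The C185G libraries lay above all the others, with replicate 1 again the nearest. On the log2 scale the change was 0.61 ± 0.08 against WT and 0.62 ± 0.08 against C185Gneo (adjusted p = 2.66e-05 and 2.00e-05, limma).

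Gosr2, a Golgi SNARE also called membrin, rose by 0.22 against WT (adjusted p = 0.00165) and 0.15 against C185Gneo (adjusted p = 0.017, limma), to 103 ± 4.59 CPM from 88.4 ± 3.34 and 92.8 ± 2.84. Sec22b, a SNARE of COPII vesicles, rose by 0.20 (adjusted p = 0.00435) and 0.13 (adjusted p = 0.043, limma), to 104 ± 5.46 CPM from 90.5 ± 2.68 and 94.99 ± 3.19. Bet1 was at 21.95 to 23.6 CPM in WT, 21.5 to 25.5 in C185Gneo and 19.6 to 21.1 in C185G. Although the groups did not overlap, Bet1 passed only against C185Gneo (-0.20, adjusted p = 0.0228) and not against WT (-0.16, adjusted p = 0.0742, limma). Gosr1 did not pass (0.00 and 0.03). The 5 SNAREs summed to 330 to 350 CPM in WT, 336 to 354 in C185Gneo and 379 to 439 in C185G.

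**Figure D2:**
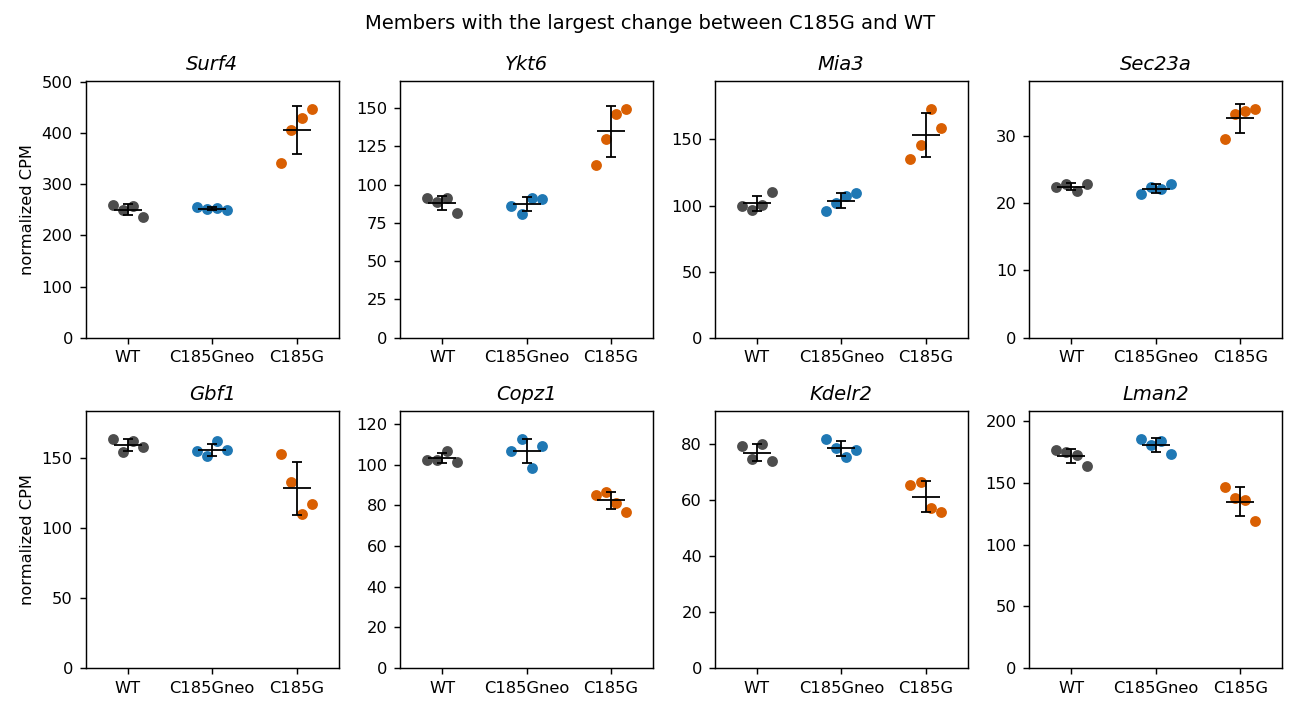
Normalized CPM per library (points) with mean and SD (bars) of the 8 genes with the largest change between C185G and WT, 4 libraries per group, axes from 0. Surf4, Ykt6, Mia3 and Sec23a lie above all other libraries in C185G and Copz1, Kdelr2 and Lman2 below them, while the values of Gbf1 in C185G spread from 110 to 153 CPM.

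C185G replicate 1 was nearest to the WT mean for 17 of the 23 genes called in C185G against WT, replicate 2 for 5, replicate 4 for 1 and replicate 3 for 0. Without C185G replicate 1, 16 genes were higher and 9 lower against WT, and 12 and 9 against C185Gneo. Without both that library and C185Gneo replicate 1, a choice made after seeing the data, the counts were 16 and 9, and 12 and 8.

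A ratio of paralogs within a library does not depend on the scaling, and 9 pairs were compared in the 3 contrasts. The log2 ratio of Sar1b to Sar1a was -2.15 ± 0.05 (SD, n = 4) in WT, -2.18 ± 0.12 in C185Gneo and -1.60 ± 0.17 in C185G, a difference of 0.56 from WT and 0.59 from C185Gneo. For Sec23b to Sec23a it was 2.52 ± 0.08, 2.59 ± 0.05 and 2.04 ± 0.10, differences of -0.49 and -0.56. For Sec24d to Sec24c it was -0.72 ± 0.08, -0.75 ± 0.04 and -0.33 ± 0.04, differences of 0.39 and 0.42. In these 3 pairs the C185G libraries overlapped neither other group. Of all single genes, 48.7% did not overlap against WT and 49.9% against C185Gneo, and no ratio test passed after adjustment (below). The mean ratios in C185G were shifted towards Sar1b, Sec23a and Sec24d, each lower per kb of exon than its paralog in WT. Kdelr2, lower than Kdelr1 in WT (42.1 against 47.5 CPM per kb), lost relative to it. Gosr2, higher than Gosr1 (27.1 against 11.6), gained, so the 9 pairs showed no common shift towards the lower paralog.

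The ratio of Kdelr2 to Kdelr1 fell from -0.21 ± 0.09 in WT and -0.22 ± 0.05 in C185Gneo to -0.58 ± 0.18 in C185G, differences of -0.37 and -0.36 and again without overlap. Gosr2 to Gosr1 was at 0.83 ± 0.06, 0.93 ± 0.07 and 1.06 ± 0.10, a difference of 0.22 from WT without overlap and of 0.13 from C185Gneo with overlap. Each of these 9 contrasts without overlap had p = 0.0286 in the exact two-sided permutation test, the smallest that 4 against 4 libraries allow, and 0.0857 after Benjamini-Hochberg adjustment over 27 tests, so 0 of 27 passed. Sec24a to Sec24b differed by 0.04 and 0.03, Arf5 to Arf4 by 0.06 and 0.04, Copg2 to Copg1 by -0.15 and -0.03, and Kdelr3 to Kdelr1 by -0.27 and 0.00 in C185G against WT and C185Gneo, with exact p from 0.171 to 1. Of the 9 pairs, 0 reached p under 0.05 in C185Gneo against WT by the exact test. How reads were divided among similar copies is not given in the sources used here.

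**Figure D3:**
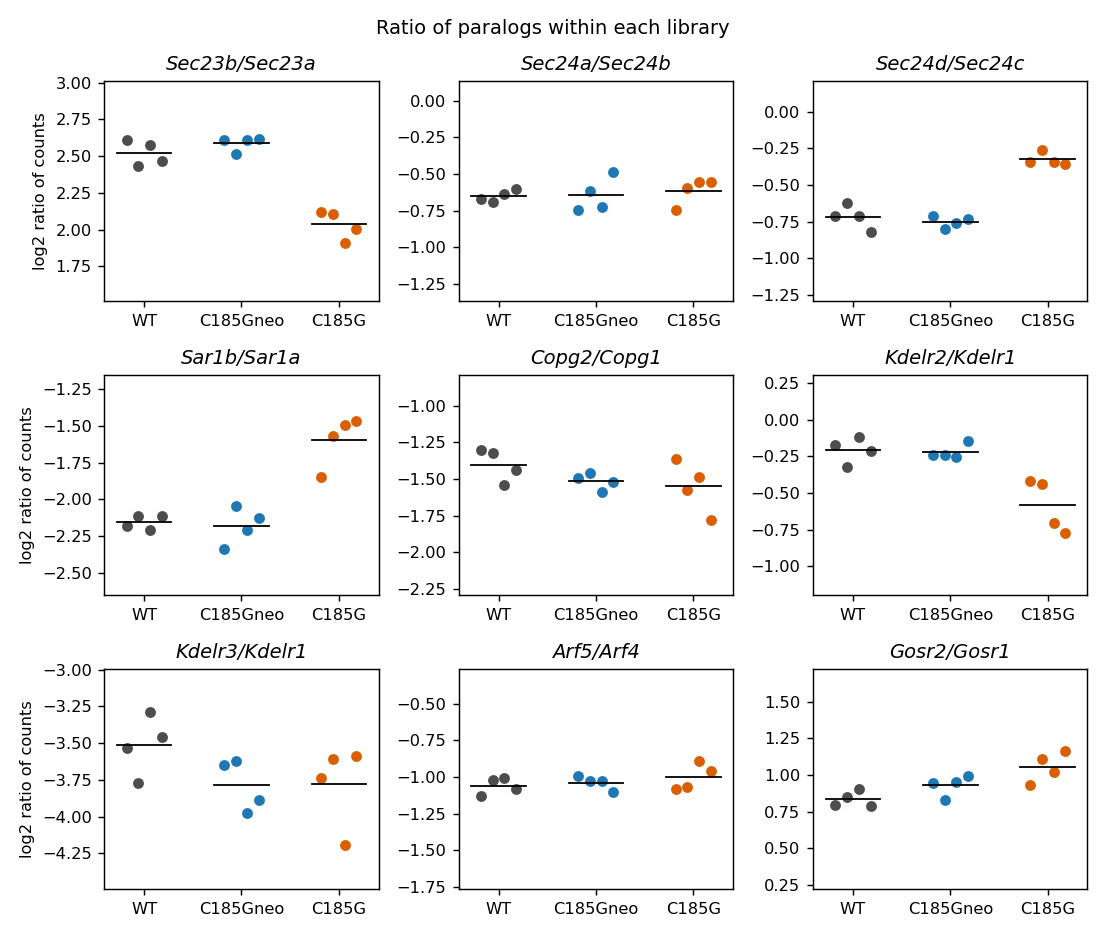
Log2 ratio of counts of 9 paralog pairs within each library (points; the line is the group mean of 4), with axes of equal height. The C185G libraries stand apart from both other groups for Sec23b/Sec23a, Sec24d/Sec24c, Sar1b/Sar1a and Kdelr2/Kdelr1, and overlap at least C185Gneo for the other 5 pairs.

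Other genes of the route, in 6 lists chosen by function, also moved in both directions, and 91 of 93 were measured (Tmed11 and Creb3l3 were not). The share passing in C185G against WT ran from 42.9% in the TRAPP list to 72.7% among CREB3 family and UPR regulators. Of all genes 55% passed, with 27.3% higher and 27.8% lower, and of those with at least 20 CPM 63.9%. Of 9 other coat and exit site genes, 3 were higher and 1 lower in C185G against WT. Copz2, the second zeta subunit of COPI, fell from 17.2 ± 1.18 to 10.1 ± 1.24 CPM (-0.76), as Copz1 did. Pdcd6, the calcium-binding partner of Sec31, was at 0.48, Mia2, the relative of Mia3, at 0.37 and Tfg, an exit site organiser, at 0.20, all higher. Of 16 other p24 and cargo receptor genes, 5 were higher and 4 lower. The cargo receptors Cnih1 (0.58) and Ergic2 (0.44) rose, and Tmed6 (-2.14) and Lman1l (-0.98) fell, both of which had less than 2 CPM in WT.

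Of 9 other Arf genes and regulators, 2 were higher and 3 lower. Golph3, a Golgi membrane protein, fell by 0.28, Arf2 rose by 0.47 and Arfgap2, which promotes GTP hydrolysis by Arf, by 0.20. Of 32 tethers and other SNARE genes, 10 were higher and 6 lower. Nsf, the ATPase that takes SNARE complexes apart, rose from 51.1 ± 1.45 to 100 ± 16.5 CPM (0.96 against WT, 1.06 against C185Gneo). Cog5 (-0.61) of the Golgi tether COG, Zw10 (-0.56) of the ER tether complex and the Golgi stacking protein Gorasp1 (-0.52) fell. Of 14 genes of TRAPP, a tether for vesicles at the early Golgi, 5 were higher and 1 lower. Trappc1 was at 12.5 ± 1.21 CPM in WT and 24.9 ± 2.25 in C185G (0.99), and Trappc3 (0.63) and Trappc5 (0.37) were also higher, while Trappc12 (-0.39) was lower.

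Among 11 genes of the CREB3 family and UPR regulators, many of which are transcription factors or proteases of the ER or Golgi membrane, 3 were higher and 5 lower. Creb3l1 had the largest change and fell from 86.1 ± 8.68 CPM in WT and 80.9 ± 6.51 in C185Gneo to 29.3 ± 2.65 in C185G (-1.55 and -1.47, adjusted p = 9.25e-09 and 1.18e-08, limma). Creb3l2, which in mouse cartilage is known to drive Sec23a, fell from 103 ± 2.92 to 60.4 ± 5.44 CPM (-0.77). Sec23a rose, and a link between the changes of these genes was not tested. Creb3l4 fell by 0.73 and Creb3 rose by 0.54. Of the factors named with the promoters, and chosen here for that reason, Xbp1 fell by 0.30 and Atf6 rose by 0.19 against WT (adjusted p = 0.0015 and 0.00918, limma). The values are RNA levels, and the activity of these factors was not measured. In C185Gneo against WT 0 of the 91 passed (limma).

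**Figure D4:**
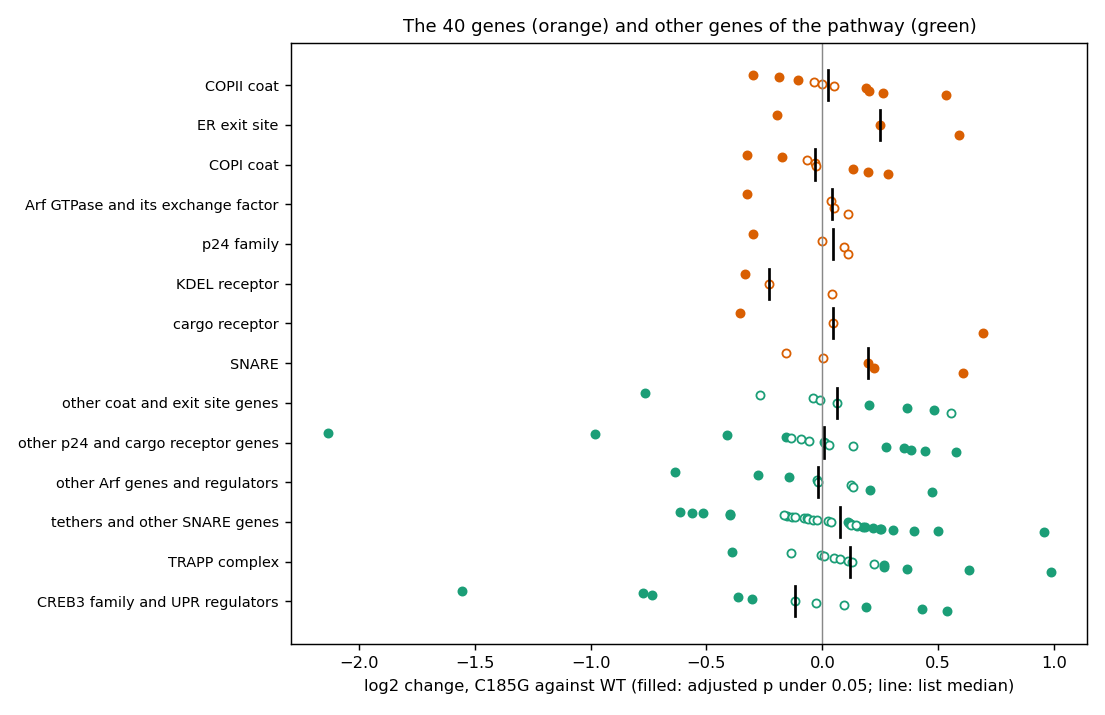
Log2 change in C185G against WT of the 40 genes by role (orange) and of 91 other genes of the pathway (green), with list medians as black lines and filled points at an adjusted p under 0.05. List medians lie between -0.23 (KDEL receptors) and 0.25 (ER exit site), and every list with more than 4 genes, SNAREs included, has points on both sides of 0.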

How the data were processed

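The authors deposited 1 file per library with log2 values for the same 16080 genes. STAR, limma and mm10 are named, without versions, in the submitters' processing notes. How reads were counted, on which annotation and with which strand setting, is not given in the sources used here. From the values, each is the log2 of a whole count plus 0.5 times a factor per library, and 100% of the counts came out whole within 1e-06. Scaled totals differed by at most 1.084 times. Normalized CPM are on the authors' scaling. Changes are therefore relative to the bulk of genes.

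All 12 libraries entered a fit in limma 3.58.1 (R 4.3.3; lmFit, then eBayes with its trend and robust options), which had a coefficient for each genotype and used no filter. Adjusted p-values are Benjamini-Hochberg values over all genes, with 0.05 as the threshold, and SEs are limma's. The fit was tested on simulated data. Ratios of paralogs were tested with exact permutation tests (SciPy 1.17.1, Python 3.11.15, pandas 2.3.3), and figures were drawn with matplotlib 3.10.9. Symbols and coordinates came from GENCODE M21 (GRCm38), which named 16017 genes, levels per kb from its union exon length, and promoters from RefSeq (GRCm38.p6).

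The genes and lists were chosen with earlier results of these data known. Values in every library are given for the 8 genes with the largest called change in C185G against WT and at least 5 CPM, and up to 4 called genes are named per other list, of which 1 is not reported here. Alternatives were other scalings, weights, pseudocount, filter, fewer libraries, the replicate number as a block, and each library left out.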

Additional observations from a re-analysis of the deposited data

Results flagged for a closer look

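In each group of 4 libraries, a value was set apart when its gap to the nearest other, divided by the range, passed Dixon's 95% limit for groups of 4. Of 120 groups tested, 7 did so, and chance gives about 1 in 20. Sec23a was at 29.4 CPM in C185G replicate 1 and 33.2 to 34.0 in the other C185G libraries. Copb2 was at 174 CPM in the same library and 192 to 196 in the others. Copg2 was at 54.8 CPM in C185G replicate 4, against 63.1 to 64.4. In WT replicate 3, Cope was at 111 CPM (others 97.6 to 99.7), Tmed9 at 140 (127 to 129) and Gosr2 at 93.3 (86.2 to 87.1). Gosr2 was also low in C185Gneo replicate 2, at 88.6 CPM, with 94.1 to 94.5 in the others.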

How the results depend on the processing

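Leaving out 1 library gave 11 to 16 genes higher and 8 to 10 lower in C185G against WT (median 0.0166 to 0.0624), and 8 to 12 higher and 8 to 9 lower against C185Gneo (median -0.00286 to 0.0214). With library totals as the scaling, the medians of the 40 genes were 0.118 and 0.071 in place of 0.0384 and 0.00721. That scaling moved the median of all genes to 0.0796 and 0.0675, and the share of all calls that were higher from 49.6% to 59.9% and from 50.5% to 58.1%. Of the 23 genes called against WT, 18 passed under every alternative run; Copb2, Copg2, Sec13, Sec24c and Sec31a did not. Of the 21 called against C185Gneo, 16 did, and Bet1, Cope, Gosr2, Sec13 and Sec22b did not. No called gene changed sign, and C185Gneo against WT had 0 calls among the 40 in every setting. With the replicate number as a block, 12 genes were higher and 9 lower against WT and 10 and 9 against C185Gneo. Correlations of same-numbered libraries were -0.3 to -0.0606 between WT and C185G and -0.101 to 0.11 between C185Gneo and C185G. Between WT and C185Gneo they were 0.0349 to 0.253. Libraries matched their own number best in 6 of 24 checks, which is what chance gives. The check thus shows no pairing by number but cannot exclude it. The smallest p that a sign-flip test over pairs allows for ratios is 0.125. Leaving out a library gives no test of the ratios. Depth limits Kdelr3, Tmed6 and Lman1l.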
